A study of Mus musculus with 12 samples.

Results

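The potassium channel genes of the mouse brain were examined here after photodynamic therapy (PDT). They were taken as every gene whose symbol begins with Kcn in the deposited expression table, without Kcnj8, Kcnj10, Kcnj13 and Kcnq1ot1, which gave 95 of 54532 genes. They comprise pore-forming subunits, the auxiliary subunits that bind them, and 4 transcripts named as lying opposite to such genes (os). The samples were 12 brain tissue libraries in 4 groups of 3. Controls were titled PBS and labelled untreated, and nothing in the labels tells whether they received light. The treated mice received 5-aminolevulinic acid (5-ALA), a heme precursor that cells turn into a light-sensitive pigment, at 20 mg/kg. A laser of 635 nm then gave 20 J/cm2, 30 min after that dose, and the groups are named by the time from light to sampling, which was 1.5 h, 12 h or 48 h. All mice were perfused with 0.9% NaCl. Both BALB/c and C57BL/6 stand in the labels as strain or source, with no age, sex, brain region or hour of collection, and nothing in them ties a library to an animal of its own. The p-values therefore measure the spread between these libraries, which may be technical. Of the 12 h group, 1 library carried no replicate number that matched a title and is called the unnumbered 12 h library.

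Potassium channels let potassium ions leave or enter a cell along their gradient, and by doing so they set the resting potential of neurons and glia and end action potentials. Voltage-gated (Kv) channels open on depolarization, inward rectifiers (Kir) carry current best near rest, two-pore-domain (K2P) channels give a background leak, and calcium- or sodium-activated channels couple the potassium current to the entry of other ions. Auxiliary subunits such as the KChIP and Kvβ proteins alter how the pores gate and where they sit in the membrane.

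More of these genes fell than rose after PDT at the last time sampled. At 48 h, 14 of the 78 members that passed a filter on low values had fallen against control and 7 had risen. These were 17.9% and 8.97% of the members tested, against 5.01% and 7.5% of all genes tested. The falls held the neuronal A-type partner Kcnip2, the slowly gating Kv channels Kcnh3 and Kcnh4, the Kv3 subunit Kcnc4, the M-current subunit Kcnq5, the sodium-activated Kcnt2, the G-protein-gated Kcnj9 and Kcnj3, and the leak channels Kcnk4 and Kcnk9. The rises held 4 leak channels, Kcnk10, Kcnk7, Kcnk6 and Kcnk13. Of these, Kcnk7 had 1 read in each control library. The 48 h calls of Kcnj3, Kcnk4, Kcnk9, Kcnk10, Kcnk6 and Kcnk13 were each lost when 1 or another single library was left out. At 12 h the split was 9 rises and 10 falls (11.5% and 12.8%, against 13.3% and 7.9% of all genes). At 1.5 h no member passed the test, against 0.555% of all genes. The silent subunit gene Kcnf1 had risen at 12 h and fallen at 48 h, and was the only member called in opposite directions at those times. In brain tissue, fewer cells of a type and less RNA per cell cannot be told apart.

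Values are FPKM, read numbers divided by the length of the gene and by 1 scale of the library, so levels of different genes can be compared. That scale is not the total of recovered reads. In 1.5 h replicate 1, with 15709617 reads in all, 351 reads of Kcna1 gave 6.05 FPKM. In control replicate 1, with 16642402 reads in all, 1647 reads of Kcna1 gave 19.9 FPKM. Differences are on the log2(FPKM + 1) scale, which understates the change of low genes. They were tested with limma in 1 fit of the 12 libraries, with p-values adjusted by Benjamini-Hochberg over the 17664 genes above 0.5 FPKM in at least 3 libraries, and a call means an adjusted p under 0.05. Every error given with a log2 change is the standard error of that fit. Libraries held 15348579 to 17444654 recovered reads. In 1.5 h replicates 1 and 3, mitochondrial genes took 12.4% and 9.14% of reads, against 4.16% to 6.14% in the other 10 libraries, and with each doubling of a gene's length the log2 level relative to controls moved by -0.14 and -0.09, where the remaining libraries had slopes of -0.04 to 0.01. The labelled tissue was met in all 12 libraries by 10 neuronal markers, with a summed level of at least 781 FPKM. Choroid plexus markers ran from 2.62 to 992 FPKM over the libraries.

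In control brain the members spanned almost the whole range from absent to abundant. Of the 95, 66 had a control mean of at least 1 FPKM and 31 of at least 10 FPKM, and 4 (Kcna7, Kcna10, Kcnj1 and Kcnk18) had no read in any control library. The highest was Kcnab2, a Kvβ subunit of Shaker channels, at 99.2 ± 3.34 FPKM (SD, n = 3), followed by Kcnj4, the inward rectifier Kir2.3, at 57.7 ± 8.73. Kcnip2, Kcnj9, Kcnab3 and Kcnh3 followed at 47.2 ± 8.35, 39.8 ± 4.50, 34.3 ± 7.89 and 33.4 ± 5.39 FPKM. From Kcnj4 to Kcnh3, neighbours in that order differed by less than the sum of their SDs. The silent subunit Kcnf1 was at 26.3 ± 1.52 FPKM, the highest of its family. Kcnk1 (TWIK1) was the highest leak channel, at 29.4 ± 3.06 FPKM, and Kcnt1 the highest calcium- or sodium-activated pore, at 18.8 ± 2.0 FPKM.

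**Figure D1:**
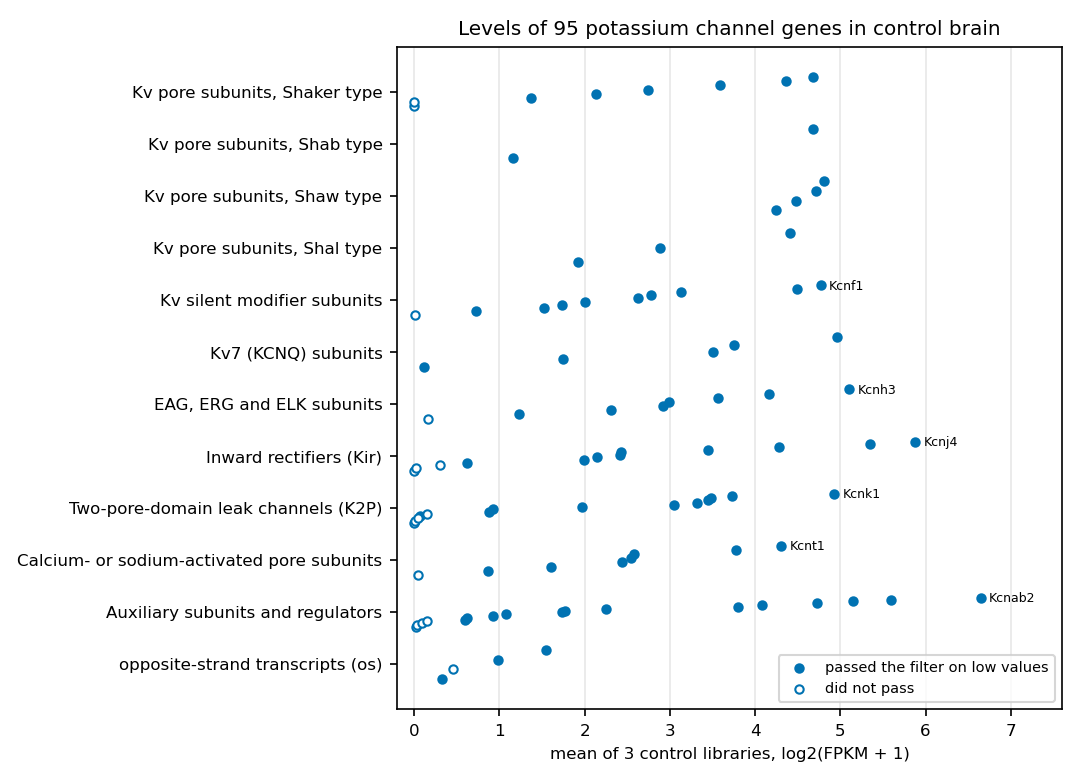
Mean of the 3 control libraries for each of the 95 members, as log2(FPKM + 1), in rows by family, with the highest member of 6 families named. Filled points are the 78 members that passed the filter on low values and open points the 17 that did not, all of which lie under 0.5, and Kcnab2 lies farthest right.

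The members whose levels differed most among the 4 groups by the limma F test were Kcnip2, Kcnf1, Kcnk10, Kcnh3, Kcnk4 and Kcnh4. Of the 95 members, 68 had a promoter window in the RefSeq table (GRCm38.p6), and the 250 bases before the start of Kcnf1, Kcnip2 and Kcnk4 are printed because these 3 of the 6 have a window free of annotated exon bases. The Kcnf1 window is chr12:17176889-17177138, that of Kcnip2 is chr19:45816064-45816313 and that of Kcnk4 is chr19:6934516-6934765, all on the minus strand and written 5′ to 3′. Capitals mark a GC box (GGGCGG, searched on both strands).
Kcnf1: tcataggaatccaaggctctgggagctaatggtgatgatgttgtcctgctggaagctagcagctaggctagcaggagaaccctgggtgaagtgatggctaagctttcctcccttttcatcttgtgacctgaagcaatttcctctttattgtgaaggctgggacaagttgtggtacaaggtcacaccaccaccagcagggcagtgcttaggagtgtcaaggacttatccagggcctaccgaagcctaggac
Kcnip2: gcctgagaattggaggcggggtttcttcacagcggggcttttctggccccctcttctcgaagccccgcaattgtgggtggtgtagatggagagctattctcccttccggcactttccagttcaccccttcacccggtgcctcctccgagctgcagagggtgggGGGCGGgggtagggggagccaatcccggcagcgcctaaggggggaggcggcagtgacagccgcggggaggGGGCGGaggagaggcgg
Kcnk4: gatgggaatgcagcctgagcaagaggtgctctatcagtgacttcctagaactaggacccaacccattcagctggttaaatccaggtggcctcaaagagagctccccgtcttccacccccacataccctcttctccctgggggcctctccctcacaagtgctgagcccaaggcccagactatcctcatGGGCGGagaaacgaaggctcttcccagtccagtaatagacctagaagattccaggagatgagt
Kcnip2 held 2 GC boxes, Kcnk4 held 1 and Kcnf1 held none. Each member is counted by the window nearest its deposited start, while the windows over all genes hold every listed start of a gene. In the windows of the members, 32 of 68 (47.1%) held a GC box, against 32.7% of 32851 windows of the same length over all genes. Their median GC content was 60.0%, against 52.4% over all windows, and TATAAA was found in 1 member (1.5%) against 12.4% of all. Of motifs linked to activity-driven genes, the cyclic AMP element TGACGTCA was in 0 members (1.55% of all windows, both strands), the AP-1 motif TGANTCA in 3 (4.4%, against 6.75%) and the EGR motif GCGNGGGCG, whose letters can overlap a GC box, in 2 (2.9%, against 4.70%). The E-box CACGTG was in 5 (7.4%, against 6.02%). None of these 4 motifs, nor TATAAA, lies in the Kcnf1, Kcnip2 or Kcnk4 window. These are letter matches in a fixed window and describe only that window.

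Against control, 19 of the 78 tested members (24.4%) passed at 12 h, 9 higher and 10 lower, where 21.2% of all genes passed (13.3% higher and 7.9% lower). At 48 h, 21 passed (26.9%), 7 higher and 14 lower, where 12.5% of all genes passed (7.5% higher and 5.01% lower). At 1.5 h none passed, against 0.555% of all genes (0.419% higher and 0.136% lower), although 21 had an unadjusted p under 0.05. The median change of the members was -0.08 at 1.5 h, -0.10 at 12 h and -0.28 at 48 h, beside 0.02, 0.00 and 0.00 over all genes tested. At 48 h, 60 of the 78 lay below 0, and in 34 (43.6%) all 48 h libraries lay below all controls, which held for 22% of all genes, while in 8 (10.3%) all lay above, against 21.1%. At 12 h, 26 members (33.3%, against 26.2%) lay wholly below the controls and 13 (16.7%, against 28.2%) wholly above, and at 1.5 h 7 (8.97%, against 12%) and 11 (14.1%, against 14.6%) did so. The 3 comparisons share the control libraries. Of the 29 members called at 12 h or 48 h, 10 were called at both times in the same direction. With quantile normalization 9 members rose and 16 fell at 12 h, where 2175 genes rose and 2431 fell, in place of 2342 and 1395. On recovered reads over the library total, 1944 genes rose and 1944 fell at 12 h, and 1589 rose and 618 fell at 48 h, in place of 1324 and 885. No tested member passed the filter through the libraries of 1 group alone. In Kcnk7, Kcnq1 and Kcnmb4os1, however, the libraries above 0.5 FPKM were all treated ones. These members entered the test through groups where they were high, and their rises are in the counts above.

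**Figure D2:**
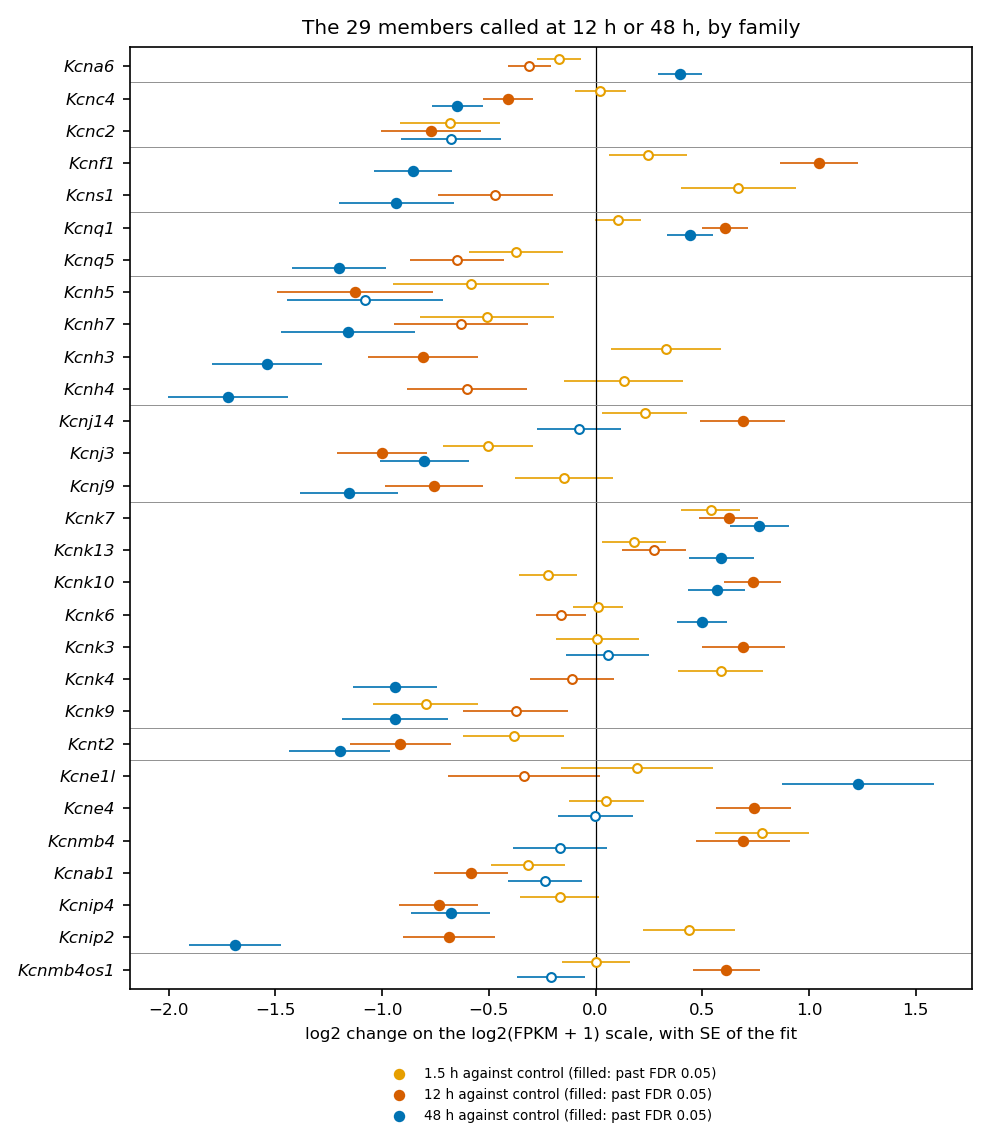
Log2 change against control at 1.5 h, 12 h and 48 h (x axis, log2(FPKM + 1) scale, bars are SE) for the 29 members called at 12 h or 48 h, in rows grouped by family. Filled points passed an adjusted p of 0.05. Every filled point of the EAG, ERG and ELK subunits lies left of 0, and Kcnf1 has 1 filled point on each side.

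The 12 h count of 19 was 9 without control replicate 1, 8 without control replicate 2 or 4, 7 without 12 h replicate 2, 9 without the unnumbered 12 h library and 29 without 1.5 h replicate 2. The 48 h count of 21 was 10 without control replicate 1, 9 without control replicate 2, 13 without 48 h replicate 4 and 33 without 1.5 h replicate 2. Without the filter on low values 14 of the 40 calls against control were lost, namely Kcnj14, Kcnmb4, Kcnab1, Kcnj9, Kcnc2, Kcnip2, Kcnh3 and Kcnh5 at 12 h and Kcne1l, Kcnj3, Kcnk9, Kcnh7, Kcnip4 and Kcns1 at 48 h. On recovered reads over the library total the 48 h calls of Kcnj3, Kcnk9 and Kcns1 had adjusted p-values of 0.0551, 0.0585 and 0.0569, and a fit restricted to the 2 groups gave Kcns1 0.0506.

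Of the Shaker, Shab, Shaw and Shal pore subunits, which form the delayed-rectifier and A-type channels of neurons, 15 were tested, and 2 fell at 12 h (Kcnc2 and Kcnc4) while 1 rose (Kcna6) and 1 fell (Kcnc4) at 48 h. Counts by family, here and below, stand beside 13.3% of all genes rising and 7.9% falling at 12 h. At 48 h those shares were 7.5% and 5.01%. Kcnc4 encodes Kv3.4, a fast inactivating subunit. It measured 21.5, 19.5 and 23.1 FPKM in the control libraries, 22.2, 19.3 and 23.8 at 1.5 h, 17.1, 15.8 and 14.5 at 12 h and 14, 12.7 and 13.1 at 48 h. All 12 h and 48 h libraries lay below all controls, and the 1.5 h libraries overlapped them. Its change was -0.41 ± 0.12 (SE, adjusted p = 0.0301) at 12 h and -0.65 ± 0.12 (SE, adjusted p = 0.00471) at 48 h. The 48 h call was kept without each of the 12 libraries (adjusted p up to 0.0262), whereas the 12 h call was lost without control replicate 1 or 4, 12 h replicate 2 or the unnumbered 12 h library (adjusted p up to 0.116).

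Kcnc2 (Kv3.2), a subunit of fast-spiking interneurons, measured 17.7, 14.4 and 21.5 FPKM in the control libraries, 7.35, 15.8 and 10.2 at 1.5 h, 9.06, 10.9 and 9.90 at 12 h and 9.30, 10.02 and 13.0 at 48 h. The 12 h and 48 h libraries were all below the controls, and 1.5 h replicate 2 lay among them. The change was -0.77 ± 0.24 (SE, adjusted p = 0.0381) at 12 h and -0.68 ± 0.24 (SE, adjusted p = 0.0876) at 48 h. The 12 h call was lost without control replicate 1 or 4, 1.5 h replicate 3, any 12 h library or 48 h replicate 3 (adjusted p up to 0.134). Kcna6 (Kv1.6) went the other way, with 11.5, 10.5 and 11.2 FPKM in the control libraries, 9.98, 9.80 and 9.37 at 1.5 h, 8.59, 8.96 and 8.64 at 12 h and 13.2, 15.7 and 15.8 at 48 h. Its 48 h libraries were above every other library and its 12 h libraries below every control. The change was 0.40 ± 0.10 (SE, adjusted p = 0.0268) at 48 h and -0.31 ± 0.10 (SE, adjusted p = 0.0516) at 12 h. The call at 48 h was lost without any control library or 48 h replicate 3 or 4 (adjusted p up to 0.118), and 39.6% of the Kcna6 exon bases overlap an annotated gene on the opposite strand (Gm26673), whose reads cannot be told apart where counting ignored strand.

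Several other pores of these families passed in no comparison with control on the values as deposited. The axonal subunits Kcna1 and Kcna2 were at 14.9 to 23.9 and 21.7 to 29.1 FPKM in controls and at 12.1 to 16.6 and 13.4 to 16.9 at 48 h. Kcnc1 (Kv3.1), at 24.4 to 26.2 FPKM in controls, was at 19.2 to 20.8 at 48 h, below every control, with a change of -0.33 ± 0.26 (SE, adjusted p = 0.455). Kcnd2 (Kv4.2), the dendritic A-type pore, came close to the threshold. It measured 18.7, 19.8 and 22.5 FPKM in the control libraries, 11.1, 18 and 13.6 at 1.5 h, 15.2, 14.8 and 15.9 at 12 h and 14, 14.4 and 13.6 at 48 h. Every treated library was below every control, and the change was -0.51 ± 0.15 (SE, adjusted p = 0.0905) at 1.5 h, -0.38 ± 0.15 (SE, adjusted p = 0.0985) at 12 h and -0.50 ± 0.15 (SE, adjusted p = 0.0510) at 48 h. Kcna3 (Kv1.3) was at 2.74 to 3.74 FPKM in controls and overlapped them at 48 h (2.56 to 3.37). Length-corrected values had each library's trend with gene length over all tested genes taken out. On these values Kcnd2 passed at 48 h (-0.49, adjusted p = 0.0289) and Kcna2 at 12 h (-0.87, adjusted p = 0.0388). Kcna6 also passed on them at 12 h (-0.31, adjusted p = 0.0486).

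Silent subunits form no channel alone and join other Kv pores. Of 9 tested, 1 rose at 12 h and 2 fell at 48 h. Kcnf1 (Kv5.1), at chr12:17172100-17176888, measured 28, 25.2 and 25.6 FPKM in the control libraries, 23.7, 35.6 and 36.2 at 1.5 h, 55.4, 58.4 and 52.2 at 12 h and 16.5, 11 and 15.3 at 48 h. All 12 h libraries were above, and all 48 h libraries below, every control and 1.5 h library. The mean was 2.11-fold higher at 12 h and 1.84-fold lower at 48 h than in controls. On the log2 scale the change was 1.05 ± 0.18 (SE, adjusted p = 0.00222) at 12 h and -0.86 ± 0.18 (SE, adjusted p = 0.0106) at 48 h, and from 12 h to 48 h it was -1.90 ± 0.18 (SE, adjusted p = 9.29e-05). The call at 12 h was kept without each of the 12 libraries (adjusted p up to 0.0129), and the 48 h call was lost without control replicate 1 (adjusted p up to 0.0503).

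Kcns1 (Kv9.1) measured 7.50, 9.65 and 6.05 FPKM in the control libraries, 10.05, 17.9 and 11.3 at 1.5 h, 6.62, 4.61 and 4.63 at 12 h and 2.11, 4.83 and 4.04 at 48 h. Its 1.5 h libraries were all above, and its 48 h libraries all below, the controls. The change was 0.67 ± 0.27 (SE, adjusted p = 0.127) at 1.5 h and -0.93 ± 0.27 (SE, adjusted p = 0.0445) at 48 h. At 48 h the call was lost without any control library, 1.5 h replicate 3, any 12 h library or 48 h replicate 1 or 4 (adjusted p up to 0.170). Kcnv1 (Kv8.1), at 13.7 to 26.2 FPKM in controls and 5.14 to 12.5 at 48 h, had a change of -1.15 ± 0.36 (SE, adjusted p = 0.0635) and was not called. The summed level of the silent subunits was 64.3 to 79.4 FPKM in controls, 78.9 to 101 at 1.5 h, 85.5 to 99.7 at 12 h and 35.5 to 48.9 at 48 h, and the 48 h libraries lay below all others. Kcnf1 is the main term of that sum at 12 h, with a mean of 55.3 FPKM against 26.3 in controls, while the median change of the tested silent subunits at 12 h was -0.11.

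Kv7 subunits carry the M-current, which muscarinic receptors suppress and which damps repeated firing. Kcnq3 was at 9.58 to 11.5 FPKM in controls, 5.66 to 6.30 at 12 h and 4.30 to 5.89 at 48 h, without overlap at the later times, but its change of -0.86 ± 0.29 (SE, adjusted p = 0.0787) at 48 h was not called. On length-corrected values Kcnq3 passed at both times (adjusted p = 0.0135 at 12 h and 0.0253 at 48 h), and Kcnq5 also passed at 12 h (0.0269). Kcnq5 measured 12.4, 14.5 and 10.4 FPKM in the control libraries, 8.80, 13.6 and 6.66 at 1.5 h, 9.46, 6.84 and 6.5 at 12 h and 4.37, 4.96 and 5.10 at 48 h. Its 48 h libraries were the lowest of all 12 and close together. Its change was -0.65 ± 0.22 (SE, adjusted p = 0.0586) at 12 h and -1.20 ± 0.22 (SE, adjusted p = 0.00492) at 48 h, and the 48 h call was kept without each of the 12 libraries (adjusted p up to 0.0280).

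Kcnq1, a subunit of heart and epithelia, was scarce in controls, at 0.127, 0.0277 and 0.0978 FPKM, which rested on 9, 2 and 7 reads. It was at 0.633, 0.620 and 0.690 FPKM at 12 h and 0.548, 0.320 and 0.559 at 48 h, above every control. The change was 0.61 ± 0.11 (SE, adjusted p = 0.00261) at 12 h and 0.44 ± 0.11 (SE, adjusted p = 0.0216) at 48 h. At 12 h the call was kept without each of the 12 libraries (adjusted p up to 0.0159), and the 48 h call was lost without any control library or 48 h replicate 1 or 4 (adjusted p up to 0.0933). Kcnq1ot1 lies on the opposite strand over 3.0% of its exon bases.

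Of the EAG, ERG and ELK subunits, slowly gating Kv channels related to the heart channel Kcnh2, 7 were tested. Of these 2 fell at 12 h and 3 at 48 h, none rose, and their median change was -1.08 at 48 h beside -0.28 over all members. Over all genes tested, 7.9% fell at 12 h and 5.01% at 48 h. Kcnh3 (ELK2), at chr15:99224861-99242817, measured 35.8, 37.2 and 27.2 FPKM in the control libraries, 46.2, 46.7 and 33.8 at 1.5 h, 24.9, 16.3 and 15.4 at 12 h and 6.99, 12.8 and 13.7 at 48 h. All 12 h libraries were below all controls, and all 48 h libraries below all 12 h libraries. The 48 h mean was 2.99-fold lower than the control mean, with a log2 change of -0.81 ± 0.26 (SE, adjusted p = 0.0455) at 12 h and -1.54 ± 0.26 (SE, adjusted p = 0.00281) at 48 h. Its 12 h call was lost without any control library, 12 h replicate 2, the unnumbered 12 h library or 48 h replicate 3 (adjusted p up to 0.153), and with a pseudocount of 0.1 its adjusted p was 0.0508. Its 48 h call was kept without each of the 12 libraries (adjusted p up to 0.0178).

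Kcnh4 (ELK1), at chr11:100740376-100759942, measured 6.79, 8.94 and 5.03 FPKM in the control libraries, 6.95, 12.2 and 4.84 at 1.5 h, 5.38, 3.37 and 3.80 at 12 h and 1.19, 1.19 and 1.72 at 48 h. Its 48 h libraries were far below every other library, while the 12 h libraries overlapped the controls. The 48 h mean was 5.07-fold lower than the control mean, the lowest ratio among the called members. The log2 change was -0.60 ± 0.28 (SE, adjusted p = 0.158) at 12 h and -1.72 ± 0.28 (SE, adjusted p = 0.00246) at 48 h, and the 48 h call was kept without each of the 12 libraries (adjusted p up to 0.0151).

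Kcnh7 (ERG3) measured 6.61, 8.22 and 4.89 FPKM in the control libraries, 2.70, 8.58 and 3.04 at 1.5 h, 3.85, 3.94 and 3.66 at 12 h and 1.69, 2.44 and 2.99 at 48 h, so the 12 h and 48 h libraries lay below the controls. Its change at 48 h was -1.16 ± 0.31 (SE, adjusted p = 0.0341). This call was lost without control replicate 1 or 2, any 12 h library or any 48 h library (adjusted p up to 0.134). Kcnh5 (EAG2) measured 3.60, 5.49 and 2.82 FPKM in the control libraries, 0.893, 5.55 and 1.73 at 1.5 h, 1.20, 1.19 and 1.27 at 12 h and 0.921, 1.49 and 1.51 at 48 h. The 12 h libraries were close together and the 1.5 h libraries wide apart. Its change was -1.13 ± 0.36 (SE, adjusted p = 0.0485) at 12 h and -1.08 ± 0.36 (SE, adjusted p = 0.0799) at 48 h, and the 12 h call was lost without any control library, 1.5 h replicate 3, any 12 h library or any 48 h library (adjusted p up to 0.175). Kcnh1 (EAG1) and Kcnh2 (ERG1) overlapped the controls at every time. Kcnh2 was at 9.12 to 13.4 FPKM in controls and 9.89 to 12.2 at 48 h, with a change of 0.07 ± 0.15 (SE, adjusted p = 0.817). The summed level of the class was 67.8 to 91.4 FPKM in controls, 51.0 to 71.7 at 12 h and 33.9 to 48.5 at 48 h.

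**Figure D3:**
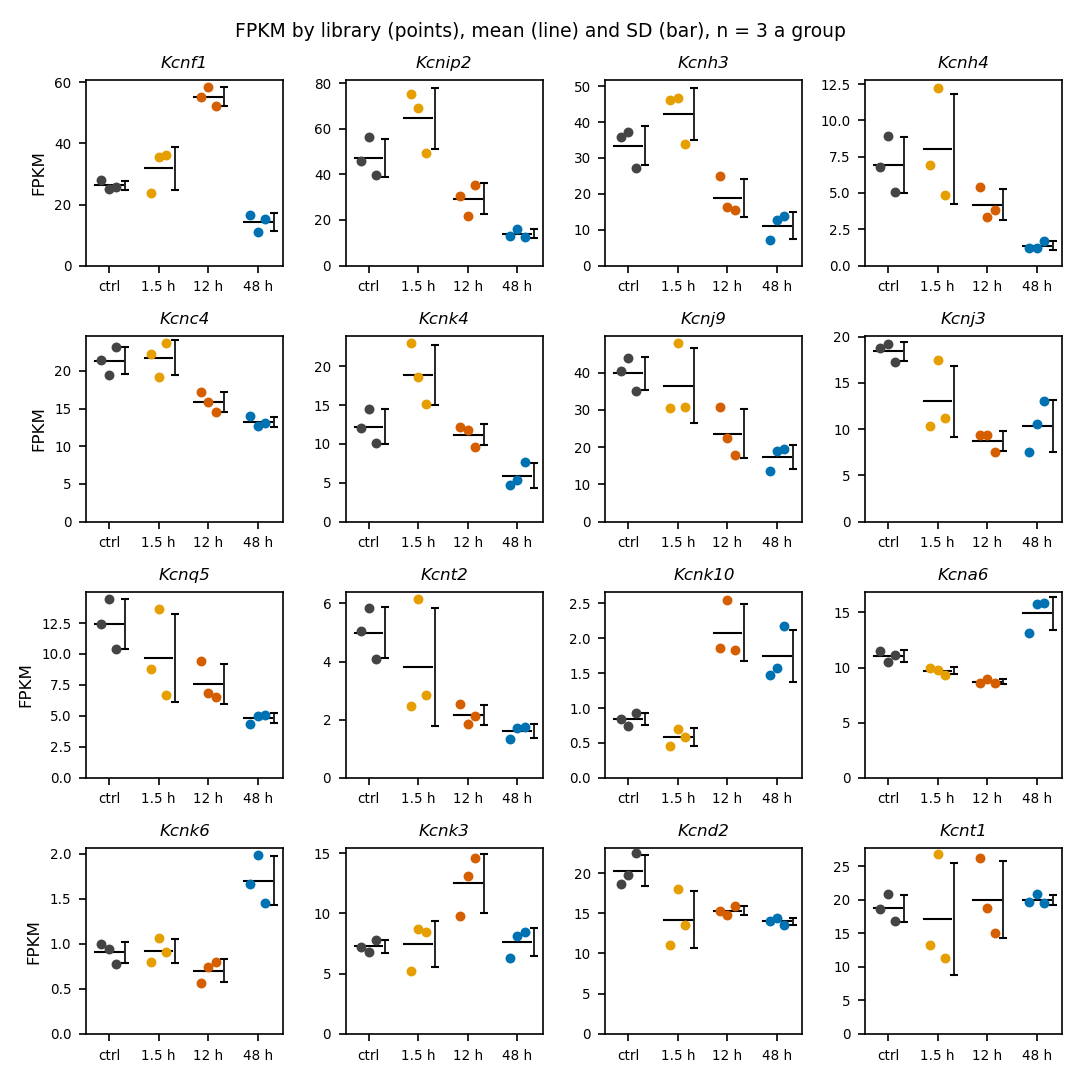
FPKM of 16 members in each of the 12 libraries (points, linear axis from 0), by group, with the mean (line) and SD (bar) of 3 libraries. Kcnf1 is highest at 12 h and lowest at 48 h, Kcnip2, Kcnh3, Kcnh4 and Kcnc4 are lowest at 48 h, Kcnk10 is high at 12 h and 48 h, and Kcnt1 overlaps between groups.

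Inward rectifiers hold neurons and glia near rest, and Kcnj3, Kcnj6 and Kcnj9 (GIRK1, GIRK2 and GIRK3) open when G-protein-coupled receptors such as the GABA-B receptor release G-protein subunits. Of 9 tested, 1 rose and 2 fell at 12 h, and 2 fell at 48 h. Kcnj9 measured 40.5, 43.9 and 35.0 FPKM in the control libraries, 30.6, 48.1 and 30.9 at 1.5 h, 30.7, 22.4 and 17.8 at 12 h and 13.7, 18.9 and 19.6 at 48 h. All 12 h and 48 h libraries lay below all controls. The change was -0.76 ± 0.23 (SE, adjusted p = 0.0379) at 12 h and -1.16 ± 0.23 (SE, adjusted p = 0.00750) at 48 h. Significance at 12 h was lost without any control library, 12 h replicate 2, the unnumbered 12 h library or 48 h replicate 3 or 4 (adjusted p up to 0.146), and the 48 h call was kept without each of the 12 libraries (adjusted p up to 0.0385).

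Kcnj3, the subunit that GIRK channels need for large currents, measured 18.8, 19.2 and 17.3 FPKM in the control libraries, 10.4, 17.4 and 11.3 at 1.5 h, 9.35, 9.34 and 7.53 at 12 h and 7.51, 10.5 and 13.1 at 48 h. Again all 12 h and 48 h libraries were below the controls. The change was -1.0 ± 0.21 (SE, adjusted p = 0.00648) at 12 h and -0.80 ± 0.21 (SE, adjusted p = 0.0290) at 48 h. The 12 h call was kept without each of the 12 libraries (adjusted p up to 0.0311). Significance at 48 h was lost without any control library or 48 h replicate 1 or 3 (adjusted p up to 0.101), and 31.1% of Kcnj3 exon bases overlap another annotated gene. Kcnj6, the third member of the group in brain, measured 3.42, 2.90 and 2.64 FPKM in the control libraries, 2.72, 4.02 and 2.30 at 1.5 h, 4.34, 4.07 and 3.31 at 12 h and 1.49, 3.63 and 2.96 at 48 h. It overlapped the controls at 48 h, with a change of 0.30 ± 0.22 (SE, adjusted p = 0.397) at 12 h and -0.15 ± 0.22 (SE, adjusted p = 0.719) at 48 h.

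Kcnj4 (Kir2.3) measured 56.9, 66.8 and 49.5 FPKM in the control libraries, 99.5, 73.6 and 76.1 at 1.5 h, 80.3, 64.8 and 72.6 at 12 h and 30.1, 55.3 and 52.0 at 48 h. Its 1.5 h libraries were all above the controls and 48 h replicate 1 was the lowest, but no difference from control was called, and the 48 h change was -0.36 ± 0.23 (SE, adjusted p = 0.348). Kcnj2 (Kir2.1) was at 2.85, 4.48 and 2.96 FPKM in controls, 5.95, 4.97 and 4.79 at 12 h and 1.62, 2.36 and 1.58 at 48 h, so that it lay above controls at 12 h and below them at 48 h. The changes of 0.51 ± 0.23 (SE, adjusted p = 0.152) and -0.63 ± 0.23 (SE, adjusted p = 0.110) were not called, while the step from 12 h to 48 h was, at -1.13 ± 0.23 (SE, adjusted p = 0.00768). Kcnj14 (Kir2.4) was called at 12 h with a change of 0.69 ± 0.20 (SE, adjusted p = 0.0297), although 12 h replicate 1 at 0.734 FPKM lay inside the control range of 0.271 to 0.779. That call was lost without control replicate 1 or 2, 12 h replicate 2 or the unnumbered 12 h library (adjusted p up to 0.121), and its adjusted p was 0.0552 with only the 2 groups in the fit. Kcnj11 (Kir6.2), the pore of ATP-sensitive channels, was at 9.22 to 10.4 FPKM in controls and 5.47 to 9.64 at 48 h. Kcnj16 (Kir5.1), a glial subunit, was at 3.61 to 5.07 and 4.77 to 5.74 FPKM. Neither was called at any time.

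Leak channels of the K2P family gave 3 of the 9 rises and 0 of the 10 falls at 12 h, and 4 of the 7 rises and 2 of the 14 falls at 48 h, with 10 tested. Their median change was 0.24 at 12 h and 0.12 at 48 h, beside -0.10 and -0.28 over all members. Whether the families differ was not tested. Kcnk10 (TREK2), a channel opened by stretch, heat and fatty acids, lies at chr12:98429437-98578310 and measured 0.849, 0.749 and 0.926 FPKM in the control libraries, 0.450, 0.705 and 0.587 at 1.5 h, 1.86, 2.56 and 1.84 at 12 h and 1.48, 1.58 and 2.17 at 48 h. Every 12 h and 48 h library was above every control, and every 1.5 h library was below. The mean was 2.48-fold higher at 12 h and 2.07-fold higher at 48 h, on 116 to 142 reads in a control library. The log2 change was -0.22 ± 0.13 (SE, adjusted p = 0.267) at 1.5 h, 0.74 ± 0.13 (SE, adjusted p = 0.00298) at 12 h and 0.57 ± 0.13 (SE, adjusted p = 0.0183) at 48 h. The call at 12 h was kept without each of the 12 libraries (adjusted p up to 0.0171), and the 48 h call was lost without control replicate 1 or 2 or 48 h replicate 4 (adjusted p up to 0.0782).

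The related TRAAK channel Kcnk4 moved the other way. It lies at chr19:6925710-6934515 and measured 12.0, 14.5 and 10.1 FPKM in the control libraries, 22.9, 18.6 and 15.2 at 1.5 h, 12.1, 11.8 and 9.63 at 12 h and 4.73, 5.35 and 7.73 at 48 h. The 1.5 h libraries were above and the 48 h libraries below all controls. The change was 0.59 ± 0.20 (SE, adjusted p = 0.101) at 1.5 h and -0.94 ± 0.20 (SE, adjusted p = 0.0102) at 48 h, where the mean was 2.06-fold lower, and between those times it was -1.53 ± 0.20 (SE, adjusted p = 0.000609). Exons of Catsperz on the same strand overlap 13.1% of Kcnk4 exon bases. The 48 h call against control was lost without control replicate 2 (adjusted p up to 0.0530). Kcnk2 (TREK1), the third channel of this kind, was at 8.90 to 12.1 FPKM in controls and 7.51 to 8.69 at 48 h, with a change of -0.30 ± 0.26 (SE, adjusted p = 0.517).

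The acid-sensitive channels Kcnk3 and Kcnk9 were called at different times. Kcnk3 (TASK1) measured 7.18, 6.80 and 7.81 FPKM in the control libraries, 5.22, 8.70 and 8.47 at 1.5 h, 9.83, 13.1 and 14.6 at 12 h and 6.30, 8.13 and 8.50 at 48 h. The 12 h libraries were above all controls and the 48 h libraries on both sides of them, with a change of 0.69 ± 0.19 (SE, adjusted p = 0.0265) at 12 h. That call was lost without any control library, 12 h replicate 2 or the unnumbered 12 h library (adjusted p up to 0.104), and on recovered reads over the library total its adjusted p was 0.0881. Kcnk9 (TASK3) measured 11.3, 9.09 and 9.36 FPKM in the control libraries, 3.83, 8.50 and 4.33 at 1.5 h, 9.29, 7.40 and 5.81 at 12 h and 5.2, 3.67 and 5.28 at 48 h. The 1.5 h and 48 h libraries were below all controls, with a change of -0.80 ± 0.25 (SE, adjusted p = 0.0936) at 1.5 h and -0.94 ± 0.25 (SE, adjusted p = 0.0298) at 48 h. The 48 h call was lost without any control library or any 48 h library (adjusted p up to 0.114).

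Kcnk13 (THIK1) and Kcnk6 (TWIK2) are leak channels known from microglia and macrophages. Kcnk13 measured 2.75, 2.73 and 3.25 FPKM in the control libraries, 3.94, 3.33 and 3.05 at 1.5 h, 3.48, 3.60 and 4.10 at 12 h and 6.43, 4.05 and 4.40 at 48 h. All 12 h and 48 h libraries were above the controls, and 48 h replicate 3 lay among the 12 h libraries. The change was 0.27 ± 0.15 (SE, adjusted p = 0.235) at 12 h and 0.59 ± 0.15 (SE, adjusted p = 0.0263) at 48 h. Kcnk6 measured 1.0, 0.942 and 0.772 FPKM in the control libraries, 0.793, 1.06 and 0.913 at 1.5 h, 0.560, 0.746 and 0.802 at 12 h and 1.66, 1.99 and 1.45 at 48 h, and its 48 h libraries were the highest, with a change of 0.50 ± 0.12 (SE, adjusted p = 0.0170). The 48 h call of Kcnk13 was lost without control replicate 1 or 2 or 48 h replicate 1 (adjusted p up to 0.101), and that of Kcnk6 was lost without control replicate 2 or 4 or 48 h replicate 3 (adjusted p up to 0.0718). The summed level of 6 microglial markers was 78.2 to 84.3 FPKM in controls, 46.5 to 49.0 at 12 h and 140.1 to 146 at 48 h, with 4 of 6 lower at 12 h and 4 of 6 higher at 48 h, and none of the 6 at 0 in any library. The part of that shift in the Kcnk13 and Kcnk6 values was not tested.

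Kcnk7, whose protein gives no current on its own in cells, had 1 read in each control library (0.0471, 0.0462 and 0.0466 FPKM). It had 11, 10 and 6 reads at 1.5 h, 10, 9 and 17 at 12 h and 17, 23 and 14 at 48 h, so every treated library was above every control. Its adjusted p was 0.0864 at 1.5 h, the smallest of any member there, 0.00919 at 12 h and 0.00461 at 48 h. The change was 0.62 ± 0.14 at 12 h and 0.77 ± 0.14 at 48 h (SE), on few reads. Both calls were kept without each of the 12 libraries. The abundant Kcnk1 measured 29.8, 32.3 and 26.2 FPKM in the control libraries, 67.9, 43.0 and 45.9 at 1.5 h, 41.2, 45.7 and 46.0 at 12 h and 24.9, 43.4 and 34.5 at 48 h. Its 1.5 h and 12 h libraries were above all controls, with changes of 0.78 ± 0.21 (SE, adjusted p = 0.0879) and 0.58 ± 0.21 (SE, adjusted p = 0.0775) that were not called. On length-corrected values Kcnk1 passed at 12 h (0.56, adjusted p = 0.0307).

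Among the calcium- or sodium-activated pores, 7 were tested and Kcnt2 alone was called, at 12 h and at 48 h. Kcnt2 (Slick), a sodium-activated channel, measured 5.04, 5.84 and 4.10 FPKM in the control libraries, 2.46, 6.15 and 2.84 at 1.5 h, 2.53, 1.85 and 2.12 at 12 h and 1.33, 1.71 and 1.76 at 48 h. All 12 h and 48 h libraries were below all controls, and 1.5 h replicate 2 stood above them while replicates 1 and 3 stood below. The change was -0.92 ± 0.24 (SE, adjusted p = 0.0185) at 12 h and -1.20 ± 0.24 (SE, adjusted p = 0.00730) at 48 h. At 12 h the call was lost without control replicate 1 or 2, 12 h replicate 2 or the unnumbered 12 h library (adjusted p up to 0.0768), and the 48 h call was kept without each of the 12 libraries (adjusted p up to 0.0384). Its relative Kcnt1 (Slack) measured 18.6, 20.8 and 16.8 FPKM in the control libraries, 13.3, 26.8 and 11.3 at 1.5 h, 26.3, 18.9 and 15 at 12 h and 19.7, 20.9 and 19.6 at 48 h. It overlapped the controls at 12 h and 48 h, with changes of 0.06 ± 0.27 (SE, adjusted p = 0.908) and 0.10 ± 0.27 (SE, adjusted p = 0.867). Kcnma1, the BK channel, was at 12.3 to 13.2 FPKM in controls and 8.02 to 9.69 at 48 h, below them, but its change of -0.50 ± 0.27 (SE, adjusted p = 0.269) was not called. Kcnn2 (SK2) was at 3.49 to 4.90 and 3.14 to 4.34 FPKM.

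Of 13 auxiliary subunits and regulators tested, 2 rose and 3 fell at 12 h, and 1 rose and 2 fell at 48 h. The shares over all genes were 13.3% and 7.9% at 12 h, and 7.5% and 5.01% at 48 h. Kcnip2 (KChIP2), a calcium-binding subunit that brings Kv4 pores to the membrane, lies at chr19:45791839-45816061 and measured 45.8, 56.2 and 39.7 FPKM in the control libraries, 75.2, 69.3 and 49.5 at 1.5 h, 30.5, 21.8 and 35.3 at 12 h and 12.8, 16.1 and 12.7 at 48 h. The 1.5 h libraries overlapped the controls, all 12 h libraries lay below them, and all 48 h libraries lay below the 12 h libraries. The 48 h mean was 3.40-fold lower than the control mean. The log2 change was 0.44 ± 0.21 (SE, adjusted p = 0.182) at 1.5 h, -0.69 ± 0.21 (SE, adjusted p = 0.0417) at 12 h and -1.69 ± 0.21 (SE, adjusted p = 0.000522) at 48 h. Its 12 h call was lost without any control library, 12 h replicate 1 or 2 or 48 h replicate 1 or 4 (adjusted p up to 0.165), and the 48 h call was kept without each of the 12 libraries (adjusted p up to 0.00395).

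Its relative Kcnip4 measured 12.5, 12.2 and 14 FPKM in the control libraries, 13.8, 8.21 and 12.8 at 1.5 h, 7.68, 8.61 and 5.96 at 12 h and 6.71, 8.24 and 8.15 at 48 h. The 12 h and 48 h libraries were below all controls, with changes of -0.73 ± 0.18 (SE, adjusted p = 0.0165) and -0.68 ± 0.18 (SE, adjusted p = 0.0351). Significance at 12 h was lost without control replicate 4 or the unnumbered 12 h library (adjusted p up to 0.0718), and the 48 h call was lost without any control library, 12 h replicate 1 or any 48 h library (adjusted p up to 0.116). Kcnip3, also known as the transcriptional repressor DREAM, measured 26.8, 27.9 and 22.0 FPKM in the control libraries, 29.5, 26.4 and 31.0 at 1.5 h, 32.7, 25.3 and 22.4 at 12 h and 27.9, 55 and 51.3 at 48 h. At 48 h replicate 1 lay level with the highest control and the others far above, but the change of 0.73 ± 0.24 (SE, adjusted p = 0.0666) was not called. Kcnip1 was at 3.25 to 4.28 FPKM in controls and 3.27 to 4.12 at 48 h, a change of -0.02 ± 0.14 (SE, adjusted p = 0.951). Of the 4 KChIP genes, 2 thus fell at 48 h and 2 were not called.

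Kcnab1, a Kvβ subunit that lends Shaker channels fast inactivation, measured 13.5, 19.0 and 15.4 FPKM in the control libraries, 10.9, 14.3 and 12.6 at 1.5 h, 10.1, 8.69 and 12.1 at 12 h and 10.9, 15.1 and 14.2 at 48 h. It was below every control at 12 h, with a change of -0.59 ± 0.17 (SE, adjusted p = 0.0341), and overlapped them at 48 h with a change of -0.23 ± 0.17 (SE, adjusted p = 0.436). The 12 h call was lost without control replicate 2 or 4 or 12 h replicate 1 or 2 (adjusted p up to 0.141). Kcnab2 was at 95.8 to 102 FPKM in controls, 107 to 135 at 1.5 h and 58.7 to 101 at 48 h and was called at no time.

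Kcnmb4, the neuronal β4 subunit of the BK channel, measured 2.73, 2.40 and 2.10 FPKM in the control libraries, 6.96, 3.63 and 4.39 at 1.5 h, 5.32, 4.81 and 3.51 at 12 h and 1.35, 2.48 and 2.39 at 48 h. The 1.5 h and 12 h libraries were above all controls, with changes of 0.78 ± 0.22 (SE, adjusted p = 0.0879) and 0.69 ± 0.22 (SE, adjusted p = 0.0456). The call at 12 h was lost without any control library, 1.5 h replicate 3, 12 h replicate 1 or 2 or 48 h replicate 3 or 4 (adjusted p up to 0.148), and with quantile normalization its adjusted p was 0.0530. The opposite-strand transcript Kcnmb4os1 also rose at 12 h, where it was at 1.21, 0.601 and 0.991 FPKM against 0.351, 0.206 and 0.208 in controls, on 3 to 5 reads in a control library and 8 to 15 at 12 h. Its change was 0.61 ± 0.16 (SE, adjusted p = 0.0185). That call was lost without control replicate 2 or 4, 12 h replicate 1 or the unnumbered 12 h library (adjusted p up to 0.0715), and its adjusted p was 0.0684 with a pseudocount of 0.1 and 0.0748 with length-corrected values. Exons of Kcnmb4 are shared with Kcnmb4os1 and Kcnmb4os2 over 31.5% of their bases, and without strand the reads of these genes cannot be told apart.

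Kcne4, a single-span subunit that dampens several Kv channels, measured 0.413, 0.277 and 0.839 FPKM in the control libraries, 0.527, 0.30 and 0.861 at 1.5 h, 1.28, 1.77 and 1.47 at 12 h and 0.703, 0.329 and 0.461 at 48 h. The 12 h libraries were above all others. The change was 0.74 ± 0.18 (SE, adjusted p = 0.0122) at 12 h, and that call was lost without control replicate 2 or 12 h replicate 2 (adjusted p up to 0.0580). Kcne1l (also named Kcne5) measured 1.98, 2.17 and 2.82 FPKM in the control libraries, 5.12, 1.07 and 3.24 at 1.5 h, 1.03, 1.81 and 2.16 at 12 h and 9.44, 4.46 and 7.14 at 48 h. The 48 h libraries were above all controls and the spread within the treated groups was wide. The change at 48 h was 1.23 ± 0.36 (SE, adjusted p = 0.0455). That call was lost without any control library, 1.5 h replicate 3, any 12 h library or 48 h replicate 1 or 4 (adjusted p up to 0.142), and its adjusted p was 0.0678 with a pseudocount of 0.1 and 0.0543 with 0.5. Kcne2, which is high in choroid plexus, measured 0.588, 1.41 and 0.680 FPKM in the control libraries, 0.0466, 0 and 0.283 at 1.5 h, 0.527, 0.561 and 0.782 at 12 h and 1.93, 0.0309 and 0.181 at 48 h. All 1.5 h libraries were below every control and 12 h library, and the 48 h libraries lay on both sides of the controls. It had changes of -0.75 ± 0.33 (SE, adjusted p = 0.145) at 1.5 h and -0.28 ± 0.33 (SE, adjusted p = 0.640) at 48 h, and the summed choroid plexus markers ran from 2.62 to 444 FPKM within the 1.5 h group and from 33.3 to 992 within the 48 h group.

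Summed over all Kv pore and silent subunits, the level was 396 to 448 FPKM in controls, 301 to 517 at 1.5 h, 351 to 415 at 12 h and 260.4 to 311 at 48 h. Inward rectifiers summed to 128 to 156 FPKM in controls and 71.7 to 109 at 48 h, and leak channels to 75.1 to 90.1 and 66.9 to 89.0. Calcium- or sodium-activated pores summed to 46.9 to 50.6 FPKM in controls and 39.9 to 43.0 at 48 h. Auxiliary subunits and regulators summed to 225 to 268 and 151 to 232. So at 48 h the sums of the Kv class, the inward rectifiers and the calcium- or sodium-activated pores lay below every control library. Those of the leak channels and of the auxiliary subunits overlapped the controls. At 12 h the leak channels summed to 98.5 to 108 FPKM, above every control.

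**Figure D4:**
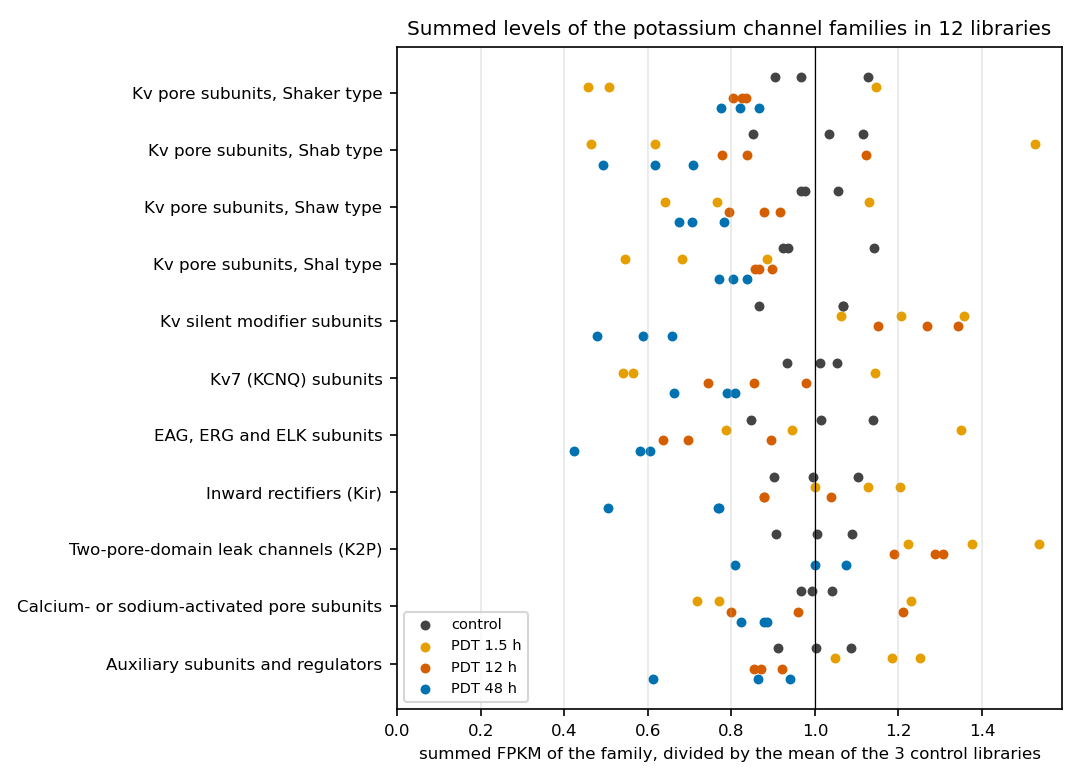
Summed FPKM of each family in each library (points), divided by the mean of the 3 control libraries (1 on the x axis), in rows by family and coloured by group. At 48 h every library lies left of all controls in every family but the leak channels and the auxiliary subunits and regulators, which overlap the controls.

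Other cell type and region markers also moved at these times. The 10 pan-neuronal markers summed to 1079 to 1125 FPKM in controls, 1087 to 1130.4 at 12 h and 781 to 979.6 at 48 h, where 0 of 10 were called (2 at an unadjusted p under 0.05), and their median change was -0.22. Astrocyte markers summed to 295 to 312 FPKM in controls, 440.3 to 505 at 12 h and 633 to 894 at 48 h, with 3 of 7 higher at 48 h. Striatal markers ran from 229.6 to 488 FPKM in controls and from 136 to 307 at 48 h, where 3 of 8 were lower, and cortical markers from 55.1 to 73.6 and from 33 to 53.0, where 0 of 6 were called (1 at an unadjusted p under 0.05). Hippocampal markers ran from 44.7 to 83.0 FPKM in controls and from 77.5 to 124.5 at 48 h, where 1 of 5 tested was higher. Thalamic markers ran from 17.6 to 63.7 and from 25.0 to 52.9, where 0 of 6 were called. Endothelial markers summed to 22.6 to 25.6 FPKM in controls, 49.5 to 62.2 at 12 h and 47.0 to 73.8 at 48 h, with 4 of 6 higher at 12 h and 1 at 48 h. Oligodendrocyte markers summed to 869 to 1031 FPKM in controls, 1557 to 1895 at 12 h and 559.6 to 1362 at 48 h, with 1 of 6 higher at 12 h and 0 at 48 h (0 at an unadjusted p under 0.05). Inhibitory neuron markers summed to 397 to 404 FPKM in controls and 444 to 1121 at 1.5 h. They were at 509 to 634 at 12 h and 327 to 494 at 48 h, and 0 of 6 were called against control. Of 5 pericyte markers, 2 were higher and 2 lower at 12 h, and 1 was higher at 48 h. Of 4 hypothalamic markers tested, 2 were higher and 1 lower at 12 h. Of 2 cerebellar markers tested, 1 was lower at 12 h and at 48 h. None of the pan-neuronal, astrocyte, striatal, cortical, endothelial and oligodendrocyte lists held a marker at 0 in any library. The part of these shifts in the falls of neuronal channel genes was not tested.

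Proteins that bind potassium channels were examined from a list of 20, of which 19 were tested. At 12 h 3 fell and none rose, and at 48 h 6 fell and none rose. Of all genes tested, 7.9% fell and 13.3% rose at 12 h, and 5.01% fell and 7.5% rose at 48 h. Dpp10, a partner of Kv4 pores beside the KChIPs, measured 8.85, 9.97 and 7.64 FPKM in the control libraries, 6.18, 8.34 and 5.79 at 1.5 h, 5.28, 4.13 and 3.34 at 12 h and 3.32, 4.78 and 5.57 at 48 h. Its change was -0.91 ± 0.19 (SE, adjusted p = 0.00717) at 12 h and -0.84 ± 0.19 (SE, adjusted p = 0.0167) at 48 h. At 12 h the call was kept without each of the 12 libraries (adjusted p up to 0.0359), and the 48 h call was lost without control replicate 1 or 2 or 48 h replicate 1 (adjusted p up to 0.0771). The other Kv4 partner, Dpp6, was at 18.8 to 23.9 FPKM in controls and 14.3 to 15.2 at 12 h, with a change of -0.48 ± 0.13 (SE, adjusted p = 0.0240) at 12 h. That call was lost without control replicate 1 or 4 or any 12 h library (adjusted p up to 0.101). Abcc8 (SUR1), the regulatory subunit of the ATP-sensitive channel of Kcnj11, measured 7.07, 6.28 and 6.45 FPKM in the control libraries, 5.79, 8.62 and 5.57 at 1.5 h, 9.65, 8.56 and 6.46 at 12 h and 2.52, 3.01 and 3.67 at 48 h. Its change at 48 h was -0.91 ± 0.18 (SE, adjusted p = 0.00727), a call that was kept without each of the 12 libraries (adjusted p up to 0.0361), while the pore gene Kcnj11 was at -0.30 ± 0.21 (SE, adjusted p = 0.403).

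Genes for scaffold and anchoring proteins of channel complexes were among the falls at 48 h. The scaffold Dlg4 (PSD-95) changed by -0.62 ± 0.13 (SE, adjusted p = 0.0100), and this call was lost without control replicate 1 (adjusted p up to 0.0519), with an adjusted p of 0.0798 on length-corrected values. The axonal adhesion gene Cntnap2 changed by -0.81 ± 0.22 (SE, adjusted p = 0.0368) and the anchoring gene Akap5 by -1.29 ± 0.36 (SE, adjusted p = 0.0405). The first was lost without any control library, any 12 h library or any 48 h library (adjusted p up to 0.131), and the second was lost without any control library, any 12 h library or any 48 h library (adjusted p up to 0.146). Adam22, a receptor linked to Kv1 complexes, changed by -0.70 ± 0.21 (SE, adjusted p = 0.0355) at 12 h and -0.75 ± 0.21 (SE, adjusted p = 0.0400) at 48 h. Its 12 h call was lost without any control library, 12 h replicate 2, the unnumbered 12 h library or 48 h replicate 4 (adjusted p up to 0.132), and the 48 h call was lost without any control library, 12 h replicate 1 or 2 or any 48 h library (adjusted p up to 0.133).

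Of 9 genes for the sodium-potassium pump and cation-chloride cotransporters, values are given for the chloride transporter Slc12a5 (KCC2). Slc12a5, which keeps chloride low in neurons, measured 107, 109.8 and 105 FPKM in the control libraries, 70.9, 141 and 81.3 at 1.5 h, 95.3, 88.2 and 72.2 at 12 h and 57.0, 56.6 and 63.4 at 48 h. Its change at 48 h was -0.85 ± 0.22 (SE, adjusted p = 0.0301), and this call was lost without any control library or any 48 h library (adjusted p up to 0.101). None of the 4 HCN genes, which carry the depolarizing current that opposes resting potassium currents, was called against control by limma at any time, and at an unadjusted p under 0.05 the counts were 0 at 1.5 h, 0 at 12 h and 1 at 48 h. Without the filter on low values the calls of Adam22, Akap5, Cntnap2 and Slc12a5 at 48 h and of Adam22 at 12 h were lost (adjusted p from 0.0559 to 0.0835), and on recovered reads over the library total those of Adam22, Akap5, Cntnap2 and Slc12a5 at 48 h (0.0518 to 0.0913). Among the HCN genes, Hcn2 was at 53.6 to 66.1 FPKM in controls and 53.0 to 67.0 at 48 h.

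At 1.5 h the 3 treated libraries differed among themselves. Relative to the control mean, the median member was at -0.24 in replicate 1, 0.17 in replicate 2 and -0.14 in replicate 3. Over the 78 members, the deviation fell with gene length in replicates 1 and 3 (Pearson r = -0.60 and -0.59 across genes, Spearman rho = -0.60 and -0.63) and not in replicate 2 (r = -0.01, rho = -0.05). In the other libraries r was -0.17, -0.25 and -0.38 at 12 h, the last in the unnumbered library, -0.17 to -0.25 at 48 h and -0.03 to 0.04 in controls, whose own mean is the reference. The genes of each such set share 1 library and are not independent. The tested members are long, with a median of 4219.5 bases against 3516 over all genes tested, and they held 0.350% and 0.407% of reads in replicates 1 and 3, against 0.567% to 0.620% in controls. Without replicate 2, 31 members (39.7%) were called at 1.5 h, 8 higher and 23 lower, beside 8071 of all 17664 genes tested (45.7%). Kcnk4, Kcnk1, Kcnk12 and Kcnmb4 were among the 11 members above every control in all 3 libraries (14.1%, against 14.6% of all genes). Kcnd2 and Kcnk9 were among the 7 below every control (8.97%, against 12%).

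**Figure D5:**
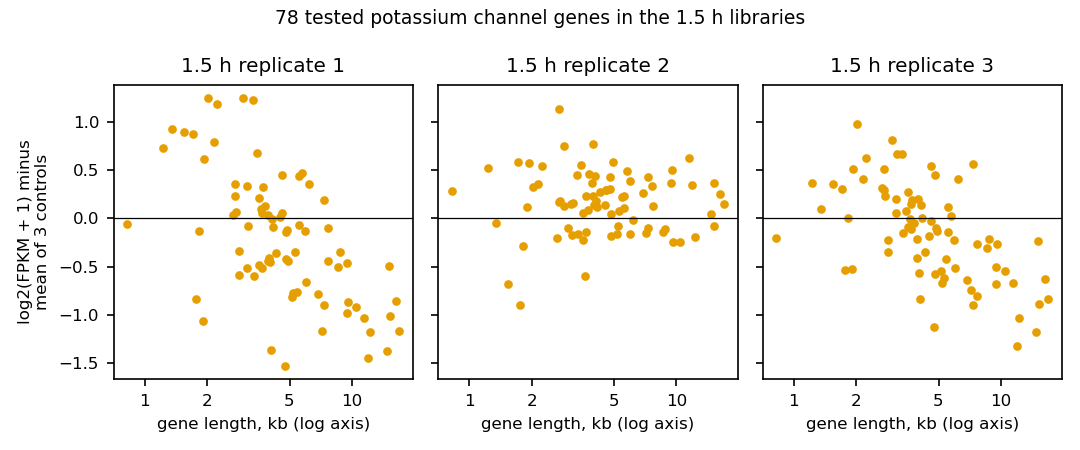
Deviation of the 78 tested members from the mean of the 3 controls (y axis, log2(FPKM + 1) scale) against gene length in kb (log x axis) in each 1.5 h library. In replicates 1 and 3 the points slope down to the right, and in replicate 2 they do not.

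Between treated groups, 19 members differed from 1.5 h to 12 h (24.4%, 10 higher and 9 lower, beside 33.2%, 16.9% and 16.3% of all genes). From 12 h to 48 h, 15 differed (3 higher and 12 lower, beside 15.6%, 5.88% and 9.73%), and from 1.5 h to 48 h 20 did (4 higher and 16 lower, beside 17.8%, 8.91% and 8.87%). On recovered reads over the library total the split was 10 higher and 5 lower from 1.5 h to 12 h and 9 and 10 from 1.5 h to 48 h, where 3135 genes rose and 710 fell in place of 1574 and 1567, and from 12 h to 48 h 2103 genes rose and 1147 fell in place of 1038 and 1719 (1693 and 1723 with quantile normalization). Kcnip2 changed at each step, by -1.12 ± 0.21 (SE, adjusted p = 0.00354) from 1.5 h to 12 h and by -1.0 ± 0.21 (SE, adjusted p = 0.00939) from 12 h to 48 h. Kcna6 rose by 0.71 ± 0.10 from 12 h to 48 h, and Kcnk6 by 0.66 ± 0.12 (SE). Kcnd3 (Kv4.3) measured 6.21, 4.89 and 8.05 FPKM in the control libraries, 3.01, 5.14 and 5.06 at 1.5 h, 9.35, 9.08 and 7.62 at 12 h and 6.52, 7.21 and 8.62 at 48 h. Its 12 h libraries were above its 1.5 h libraries by 0.86 ± 0.20 (SE, adjusted p = 0.00882), while neither group was called against control. Kcng3, a silent subunit near the limit of the filter, measured 0.671, 0.642 and 0.648 FPKM in the control libraries, 0.0981, 0.474 and 0.490 at 1.5 h, 0.871, 0.812 and 1.55 at 12 h and 0.159, 0.228 and 0.222 at 48 h, and it fell from 12 h to 48 h by 0.77 ± 0.16 (SE, adjusted p = 0.00703). Comparisons that hold the 1.5 h group include replicates 1 and 3. The F test over the 4 groups called 35 members (44.9%), against 38.4% of all genes, and 37 members were called in no comparison.

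The 17 members not tested reached at most 0.869 FPKM in any library. Kcnn4, the intermediate-conductance channel of microglia and other immune cells, was at 0 to 0.0554 FPKM in controls, 0 to 0.0559 at 1.5 h, 0.0606 to 0.196 at 12 h and 0.198 to 0.246 at 48 h. Kcnmb1, the BK subunit of smooth muscle, was at 0.0955 to 0.135 FPKM in controls and 0.0912 to 0.471 at 48 h, and Kcnj5 (GIRK4) at 0.111 to 0.391 and 0.105 to 0.592. The others were Kcna7, Kcna10, Kcnab3os, Kcne1, Kcne3, Kcnh8, Kcnj1, Kcnj15, Kcnk5, Kcnk15, Kcnk16, Kcnk18, Kcnmb3 and Kcnv2.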

How the data were processed

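Total RNA of mouse brain tissue was sequenced in 12 libraries. The authors deposited 1 table of FPKM values (fragments scaled by gene length and by a factor of the library) for 54532 genes. Bowtie 0.12.2 and the build mm8 are named per the submitters' processing notes, while the counting tool, its use of strand and the annotation are not given in the sources used here. Positions in the table equal those of GENCODE M21 on GRCm38 for 98.33% of 54409 shared identifiers and 91 of 95 members, and GRCm38 coordinates are therefore printed. Multiplied by length, 100% of FPKM values were whole multiples (within 0.05) of 1 step per library, which gave the recovered reads. All per-sample columns were used. The test used 17664 genes, 78 of 95 members among them, that exceeded 0.5 FPKM in 3 or more of 12 libraries. It was limma 3.58.1 (R 4.3.3) on log2(FPKM + 1), with a mean-variance trend, 4 group means, 8 residual and 3.09 prior degrees of freedom, two-sided tests and Benjamini-Hochberg adjustment over all genes tested. The step was tested on simulated data. Named genes were, by rule, all members called against control, 5 rises and 5 falls of smallest p between times, the highest and the most changed member of each family, and a list of well-known members, and further genes such as Kcnv1 and Kcnk12 were chosen after their values were seen. Alternatives were other pseudocounts, filters, scalings, weights, a replicate block and leaving out libraries. Some genes counted among the totals are not reported here by name. The members, gene lists and tests were chosen with earlier results of these data known. Read counts limit precision for members with few reads. Within groups, libraries correlated across genes at Pearson r from 0.919 to 0.987, and none was a copy of another.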

Additional observations from a re-analysis of the deposited data

Results flagged for a closer look

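The following members had different effects at different times by limma's test of the difference between the treated groups, which cancels the shared controls. Each is given with its log2 difference ± SE and its Benjamini-Hochberg adjusted p. From 1.5 h to 12 h the rises were Kcnk10 (0.96 ± 0.13, 0.000713), Kcnq1 (0.50 ± 0.11, 0.00642), Kcnf1 (0.80 ± 0.18, 0.00835), Kcnd3 (0.86 ± 0.20, 0.00882) and Kcng3 (0.61 ± 0.16, 0.0136). The falls over that interval were Kcnip2 (-1.12 ± 0.21, 0.00354), Kcnh3 (-1.14 ± 0.26, 0.00817), Kcnu1 (-0.51 ± 0.12, 0.00830), Kcns1 (-1.14 ± 0.27, 0.0100) and Kcnj12 (-0.56 ± 0.15, 0.0151).

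From 12 h to 48 h the rises were Kcna6 (0.71 ± 0.10, 0.00107), Kcnk6 (0.66 ± 0.12, 0.00337) and Kcne1l (1.56 ± 0.36, 0.0131), and the falls were Kcnf1 (-1.90 ± 0.18, 9.29e-05), Kcnmb4os1 (-0.82 ± 0.16, 0.00553), Kcng3 (-0.77 ± 0.16, 0.00703), Kcnj2 (-1.13 ± 0.23, 0.00768) and Kcnip2 (-1.0 ± 0.21, 0.00939). From 1.5 h to 48 h the rises were Kcnk10 (0.79 ± 0.13, 0.00303), Kcna6 (0.57 ± 0.10, 0.00399), Kcnk6 (0.49 ± 0.12, 0.0163) and Kcnd3 (0.66 ± 0.20, 0.0420), and the falls were Kcnip2 (-2.13 ± 0.21, 0.000111), Kcnk4 (-1.53 ± 0.20, 0.000609), Kcnh3 (-1.87 ± 0.26, 0.000887), Kcnh4 (-1.85 ± 0.28, 0.00153) and Kcnf1 (-1.10 ± 0.18, 0.00259). Of these 27 differences, 8 passed under every alternative, namely Kcnk10 and Kcnip2 from 1.5 h to 12 h, Kcnf1 from 12 h to 48 h, and Kcnk10, Kcnip2, Kcnk4, Kcnh3 and Kcnh4 from 1.5 h to 48 h.

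The rise of Kcng3 from 1.5 h to 12 h was lost without the unnumbered 12 h library (adjusted p up to 0.0501) and the fall of Kcnj12 was lost without 1.5 h replicate 3 or 12 h replicate 1 (adjusted p up to 0.0609). The rise of Kcne1l from 12 h to 48 h was lost without 12 h replicate 1 (adjusted p up to 0.0583). From 1.5 h to 48 h, the rise of Kcnk6 was lost without 1.5 h replicate 1 or 3 or 48 h replicate 3 (adjusted p up to 0.0562) and that of Kcnd3 was lost without control replicate 1, 1.5 h replicate 1 or 3, any 12 h library or any 48 h library (adjusted p up to 0.136). The other 22 passed on leaving out each library in turn. Without 1.5 h replicates 1 and 3 together, which leaves 1 library in that group and assumes that it varies like the others, Kcnf1, Kcnj12, Kcnd3, Kcnq1, Kcnu1 and Kcng3 were lost from 1.5 h to 12 h (adjusted p from 0.0597 to 0.139), and Kcnk6 and Kcnd3 from 1.5 h to 48 h (0.142 and 0.211). Kcnf1 is the member with calls of both signs against control, and Kcnj2 was called from 12 h to 48 h with no call against control at either time. On length-corrected values, 2 of these differences were lost, the fall of Kcnj12 from 1.5 h to 12 h (-0.37, adjusted p = 0.0978) and the rise of Kcnd3 from 1.5 h to 48 h (0.52, adjusted p = 0.0512).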

How the results depend on the processing

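Of the 40 calls of members against control, 13 passed in every alternative but the replicate block, 4 of them also with it (Kcnk10 at 12 h, and Kcnip2, Kcnh4 and Kcnc4 at 48 h), and none reversed. The numbers of members called are given for 12 h and 48 h against control, 12 h against 1.5 h, 48 h against 12 h, 48 h against 1.5 h and the F test, which were 19, 21, 19, 15, 20 and 35. With array weights they were 40, 39, 48, 36, 51 and 72, and 49 at 1.5 h against control (62.8%, beside 64.8% of all genes), from weights of 0.0963 to 8.02. Leaving out 1 library gave 7 to 29, 9 to 33, 12 to 38, 9 to 25, 12 to 37 and 23 to 58, and 0 to 31 at 1.5 h, each highest without 1.5 h replicate 2. With only the 2 compared groups in the fit, 12 h against control gave 32, 12 h against 1.5 h 10 and 48 h against 1.5 h 6. Without 1.5 h replicates 1 and 3 together, chosen after seeing the data for comparisons without that group, 12 h and 48 h against control gave 29 and 35, and 48 h against 12 h 26. With a pseudocount of 0.1, 1 member (Kcnk7) was called at 1.5 h. The median change of members was 0.17 at 1.5 h without its replicates 1 and 3, and 0.030 at 12 h without the filter on low values. Counting only members with a mean of at least 1 FPKM, also chosen after seeing the data, moved no count by over 1.5 times. On recovered reads over the library total, the median of all genes shifted by -0.17 at 1.5 h against control, and by 0.11, 0.14 and 0.22 between times. The deposited FPKM are divided by a scale other than that total. The cause of these differences was not tested.

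With the replicate number as a block, over the 11 numbered libraries, the counts were 1, 3, 3, 1, 8 and 7, and 0 at 1.5 h. Deviations of the 11 pairs of equal number correlated at -0.264 to 0.156 (median -0.004), and the labels give the numbers no meaning beyond a name, so they were not taken as a pairing.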
